A study of Saccharomyces cerevisiae with 5 samples.

Results

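Malate dehydrogenase interconverts malate and oxaloacetate with NAD as the cofactor, and budding yeast makes it as separate isozymes in different compartments. MDH1 encodes the mitochondrial enzyme of the TCA cycle, MDH2 the cytosolic enzyme used in gluconeogenesis and the glyoxylate cycle, and MDH3 the peroxisomal enzyme, which regenerates NAD for beta-oxidation of fatty acids. The values below come from deletion strains of these 3 genes, of 5325 genes named on the arrays. The strains were taken by gene symbol, because MDH3 stood apart on the array that compared the pools, and MDH1 and MDH2 were added as its isozymes. The heterozygous strains still carry an intact copy of the gene, and each value measures the barcode DNA of a strain in a pool. It does not measure an enzyme or a transcript.

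Every strain of the yeast knockout collection is marked by a pair of DNA barcodes (UPTAG and DNTAG). These were amplified from the genomic DNA of strain pools by 50 cycles of PCR and hybridised to two-colour arrays. One array held Pool A in the Cy3 channel and Pool B in the Cy5 channel (the mixed array). One held Pool B in both channels (the Pool B array), and 3 held Pool A in both (the Pool A arrays). All pools consisted of heterozygous knockout strains grown on YPD agar and frozen, and per the series design 94 strains were present in unequal amounts. These entered Pool B undiluted or diluted 8-fold or 64-fold. Pool A held less of them, with further steps of 0.33 to 5 log2 units or none of the strain, while the other strains were meant to be equal. The labels do not list the 94 strains or their steps, so whether a malate dehydrogenase strain was among them is not known here.

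Values are log2 ratios of the 2 channels of an array, centred on the median of the array's spots that have a gene name. Differences were taken against the mean of the 3 Pool A arrays, for the mixed array and for the Pool B array in turn. Which dye is on top of the ratio is not recorded in the labels. A positive value is taken as more Pool B than Pool A on the mixed array, which is likely only. The design states that the unequal strains were diluted further in Pool A than in Pool B, and 14 strains had both tags at differences of 2 or more, against 2 strains with both at -2 or less. MDH3 is 1 of the 14. Over all sizes the calls ran the other way, with 84 strains called positive and 318 negative on the mixed array. With all 4 self-self arrays as the reference, 27 were called positive and 6 negative. The direction is not settled by these counts. The 2 tags of a strain lie in separate blocks of spots, called the first and second tag, since which block holds the UPTAGs is not given. Each malate dehydrogenase strain had 1 spot per tag, 6 spots in all of 18794 named ones. Standard errors (SE) rest on the spread between the Pool A arrays, drawn by limma toward that of all strains. The labels of the Pool A arrays name no separate cultures, and the lone mixed and Pool B arrays were assumed to vary like them.

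The MDH3 strain (YDL078C, chromosome IV) was high on the mixed array and below 0 on the other 4 arrays. Its centred log2 ratio was 2.78 on the mixed array and -0.29 on the Pool B array, against -0.06, -0.27 and -0.58 on the Pool A arrays. The mixed array lay 2.84 above the highest of the other 4 arrays, and the Pool B array lay inside the range of the Pool A arrays. The difference was 3.09 ± 0.21 (SE), an 8.50-fold ratio, and stood at rank 10 from the top of 5444 strains. The strain was chosen by this value, which therefore carries no test. It lies between the smallest and largest dilution steps of the design, 0.33 and 5 log2 units. That range is wide, so a place in it does not tell whether MDH3 was among the 94 strains.

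Both MDH3 tags were high on the mixed array. The first tag read 2.51 on the mixed array and -0.35 on the Pool B array, against -0.05, -0.39 and -0.69 on the Pool A arrays. The second read 3.05 and -0.23, against -0.08, -0.16 and -0.48. The tags were 0.54 apart on the mixed array, where the median strain had a gap of 0.51, 0.12 on the Pool B array and between 0.03 and 0.22 on the Pool A arrays. The differences from the Pool A mean were 2.88 ± 0.26 (SE) and 3.29 ± 0.25 (SE), a gap of 0.41, where the median gap over all strains was 0.41. Among the 24 strains with a difference of at least 2, the median gap was 0.80 and the largest 5.21, and 6 strains had a smaller gap than MDH3.

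With Pool B in both channels, MDH3 read nearly the same as with Pool A in both. The difference was 0.02 ± 0.21 (SE) from a Pool A mean of -0.31 ± 0.26 (SD, n = 3), and 3.42% of all strains had a smaller difference in size. Among the 24 strains with a difference of at least 2 on the mixed array, the Pool B differences ran from -0.93 to 1.17 with a median of 0.29, and 1 of them was smaller in size than that of MDH3. These values share the Pool A arrays with the contrast that chose MDH3 and are given without a test.

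**Figure D1:**
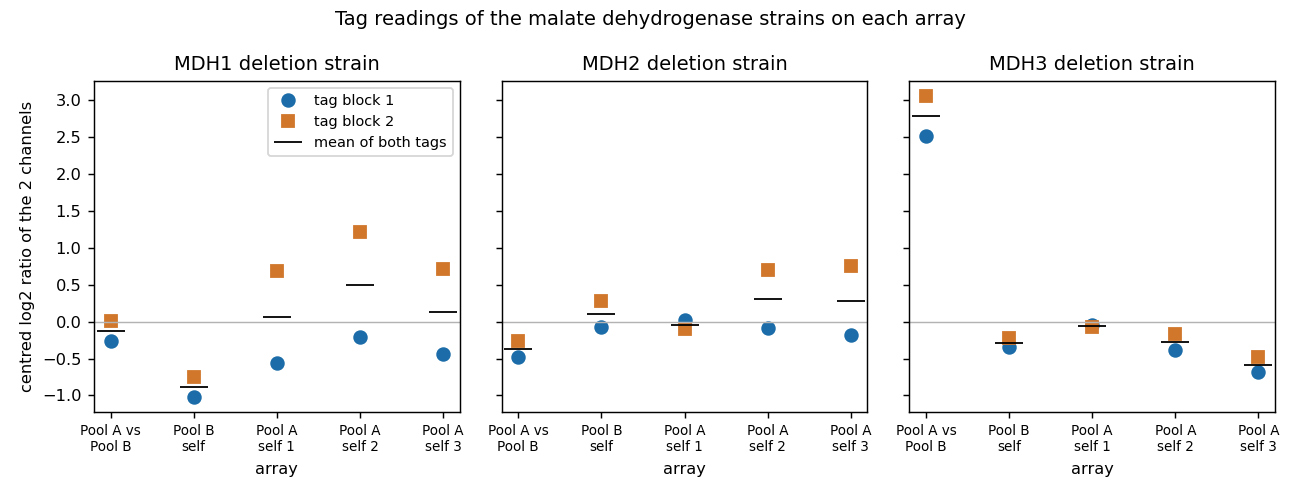
Centred log2 ratio of the 2 channels (vertical axis) of the MDH1, MDH2 and MDH3 deletion strains on each of the 5 arrays (horizontal axis), with circles for the first tag, squares for the second and a bar for their mean. MDH3 stands at 2.51 and 3.05 on the mixed array and below 0 on all self-self arrays, while the MDH1 tags lie apart on the Pool A arrays and together below 0 on the Pool B array.

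The MDH1 strain (YKL085W, chromosome XI) lay close to 0 on the mixed array and low on the Pool B array. Its centred log2 ratio was -0.13 on the mixed array and -0.88 on the Pool B array, against 0.06, 0.50 and 0.13 on the Pool A arrays. Both lone arrays lay below all Pool A arrays, the mixed array by less. The mixed difference was -0.36 ± 0.20 (SE) with the tags at 0.14 ± 0.25 and -0.87 ± 0.26 (SE). It is given without a test, since the strains were picked on this contrast. Its sign depended on the self-self arrays used, and with the Pool B array as the reference it was 0.75 ± 0.25 (SE).

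MDH1 was lower on the Pool B array than on the Pool A arrays, although each of these held 1 pool in both channels. Against a Pool A mean of 0.23 ± 0.24 (SD, n = 3) the difference was -1.11 ± 0.20 (SE), a ratio of 0.463 (limma adjusted p = 0.000551, over all 5444 strains). Its rank was 70 from the lowest. In this contrast 21.9% of all strains were called, 8.54% as positive and 13.3% as negative, so a call by itself does not set MDH1 apart. The adjusted p for MDH1 ran from 5.79e-05 to 0.0103 over the alternatives tried. The Pool B array carries another date in its title than the other 4, so pool and array date cannot be told apart here.

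Both MDH1 tags were lowest on the Pool B array, and the second differed more. It read 0.00 on the mixed array and -0.74 on the Pool B array, against 0.69, 1.21 and 0.71 on the Pool A arrays. All Pool A readings were above both others, and the Pool B array differed by -1.61 ± 0.26 (SE, limma adjusted p = 0.000144, with 21.2% of all tags called). Without Pool A replicate 1 this difference was -1.70 and the limma adjusted p 0.0572. The first MDH1 tag read -0.26 on the mixed array and -1.01 on the Pool B array, against -0.57, -0.21 and -0.44 on the Pool A arrays. Its Pool B difference of -0.61 ± 0.25 (SE) had a limma adjusted p of 0.081, and passed with quantile normalization (-0.72, limma adjusted p = 0.0137), without centring (-1.30, limma adjusted p = 0.0305) and with a trended, robust prior (-0.61, limma adjusted p = 0.0454). Without centring the median Pool B difference of all tags was itself -0.71.

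With Pool A in both channels, the MDH1 tags departed from 0 in opposite directions. A ratio other than 0 where both channels hold the same pool is called a dye effect here. The first tag averaged -0.41 ± 0.18 and the second 0.87 ± 0.30 (SD, n = 3), with limma adjusted p of 0.00896 and 8.26e-06, in a test that called 48.3% of all tags. The tags were 1.25, 1.43 and 1.15 apart on the Pool A arrays, where the median strain had gaps of 0.45, 0.59 and 0.60. On the mixed array they were 0.27 apart and on the Pool B array 0.27. The mean of both tags hid this split, with an MDH1 strain value of 0.23 that missed the threshold (limma adjusted p = 0.0676, with 44.9% of strains called) and passed it without Pool A replicate 1 (0.32, limma adjusted p = 0.0448). The call of the first tag was lost without Pool A replicate 1 (-0.33, limma adjusted p = 0.0755) and without replicate 3 (-0.39, limma adjusted p = 0.071). It was also lost without centring (-0.48, limma adjusted p = 0.0894) and with the tag blocks centred separately (-0.21, limma adjusted p = 0.137). Separate centring moved the second tag as well, to 0.66 (limma adjusted p = 3.15e-06). Part of the split was thus an offset between the blocks as a whole.

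The MDH2 strain (YOL126C, chromosome XV) read between -0.37 and 0.30 on all 5 arrays. Its centred log2 ratio was -0.37 on the mixed array and 0.11 on the Pool B array, against -0.04, 0.30 and 0.28 on the Pool A arrays. The mixed array was the lowest of the 5, and the Pool B array lay inside the Pool A range. The mixed difference was -0.55 ± 0.20 (SE), with both tags negative at -0.39 ± 0.24 and -0.71 ± 0.29 (SE), and is given without a test. The Pool B difference was -0.07 ± 0.20 (SE, limma adjusted p = 0.828), from a Pool A mean of 0.18 ± 0.19 (SD, n = 3).

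The first MDH2 tag varied little over the self-self arrays and was lowest on the mixed array, while the second varied over the Pool A arrays. The first read -0.47 on the mixed array and -0.07 on the Pool B array, against 0.02, -0.09 and -0.19 on the Pool A arrays. The second read -0.26 and 0.29, against -0.11, 0.69 and 0.75. Pool A replicate 1 thus stood below the other Pool A arrays in this tag, which gave it the largest SD of the 6 tags, 0.48 (n = 3). Its Pool A mean of 0.45 departed from 0 by limma (adjusted p = 0.0135), while that of the first tag did not pass (-0.09, limma adjusted p = 0.625). The call of the second tag was lost without replicate 2 (0.32, limma adjusted p = 0.145) and without replicate 3 (0.29, limma adjusted p = 0.199), and likewise without centring (0.37, limma adjusted p = 0.28), with the tag blocks centred separately (0.24, limma adjusted p = 0.0978) and with centring on all spots (0.45, limma adjusted p = 0.0681). The MDH2 strain passed against 0 in a single alternative, without replicate 1 (0.29, limma adjusted p = 0.0251), and had 0.18 with a limma adjusted p of 0.146 over all 3 arrays.

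**Figure D2:**
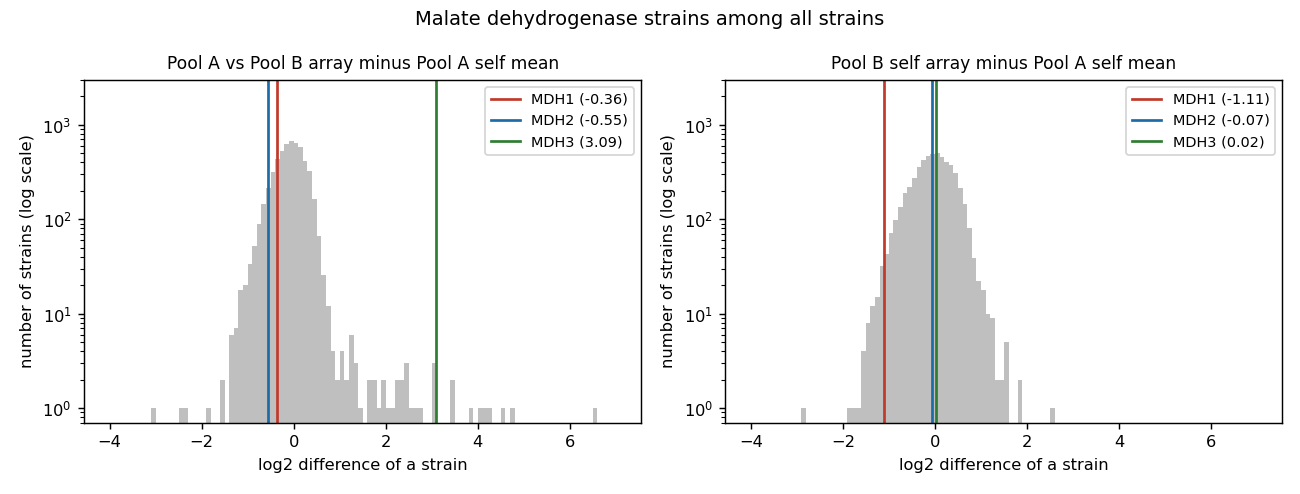
Number of strains (vertical axis, log scale) by log2 difference from the Pool A self-self mean (horizontal axis) for the mixed array (left) and the Pool B self-self array (right), over all 5444 strains, with a line at each malate dehydrogenase strain. MDH3 (3.09) lies in the sparse right tail of the mixed array and at 0.02 on the Pool B array, and MDH1 (-1.11) lies in the left tail of the Pool B array.

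In order of the mixed difference the strains were MDH3 (3.09), MDH1 (-0.36) and MDH2 (-0.55), and the last pair lay 1 SE or less apart. On the Pool B array the order was MDH3 (0.02), MDH2 (-0.07) and MDH1 (-1.11), with MDH3 and MDH2 within 1 SE of each other. The SDs over the Pool A arrays were alike, 0.26 for MDH3, 0.24 for MDH1 and 0.19 for MDH2, and larger than that of 87.7%, 82.3% and 70.1% of all strains. Over all 5444 strains the Pool A arrays were closer to each other than to the Pool B array. Pearson's correlation across strains, which share tags and dyes and are not replicates, was between 0.79 and 0.90 among the Pool A arrays and between 0.10 and 0.30 for the Pool B array against them.

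Several strains of genes next to MDH3 were also high on the mixed array. Of the 5 measured genes on either side of MDH3 on the left arm of chromosome IV, 7 of 10 were called positive and 0 negative by limma, where 1.54% of all strains were called positive. The rule chose MDH3 on this contrast and nothing is read from that count. The median difference of the 10 neighbours was 1.06, against -0.06 for all strains. Around MDH1 and MDH2 limma called 0 of 10 in either direction for each, where 7.38% of all strains were called, with medians of -0.20 and -0.39. Each group had 3 strains at an unadjusted limma p under 0.05, as did 1178 of all 5444 strains. Without Pool A replicate 1 the counts called were 1 around MDH1 and 2 around MDH2, and without replicate 3 the count around MDH2 was 1.

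The 3 highest values lay in a row on one side of MDH3. MRK1, a glycogen synthase kinase homologue, differed by 3.43 ± 0.20 (SE), THI3, a regulator of thiamine synthesis genes, by 4.25 ± 0.21 (SE) and RPP1A, a ribosomal stalk protein gene, by 3.05 ± 0.19 (SE). On the other side stood VAM6, a vacuolar tethering subunit gene, with 0.84 ± 0.20 (SE), RXT3, a histone deacetylase subunit gene, with 1.97 ± 0.19 (SE), RPL31A with 1.28 ± 0.20 (SE) and BRE1, a histone H2B ubiquitin ligase gene, with 0.78 ± 0.20 (SE). As in MDH3, both tags were high in MRK1 (3.74 and 3.13) and THI3 (4.12 and 4.38). In other called neighbours the tags lay further apart, at 0.59 and 5.50 in RPP1A, 0.37 and 3.57 in RXT3 and 2.11 and 0.45 in RPL31A. The 3 neighbours that were not called, RPS16B (0.50), RPL13A (0.31) and AHK1 (0.46), were positive too and are named after their values were seen.

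Some neighbours of MDH3 were also called on the Pool B array, by smaller values. RPP1A (0.56), VAM6 (0.61) and RPL31A (0.68) were called positive by limma, 3 of 10 where 8.54% of all strains were, and the median of the 10 was 0.40, against 0.02 for MDH3. MRK1 differed by -0.02 there and RXT3 by 0.06. The count of 3 was 5 without Pool A replicate 1, 1 without replicate 2 and 0 without replicate 3 by limma. It was also 0 without centring, where 5 of all 5444 strains were called positive. With the Pool B array or all 4 self-self arrays as the reference, 4 of the 10 neighbours were called on the mixed array, and without centring 4. In part of the first block of spots, 4895 pairs of adjacent named spots were checked, and 99.5% carried genes of the same chromosome arm. Spot order thus went by chromosome arm there. The spot numbers of MDH3 and its neighbours were not compared, so the place on the chromosome and on the array were not separated here.

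Some neighbours of MDH1 were low on the Pool B array as well. Of the 10 genes around MDH1, limma called 4 negative and 0 positive, against 13.3% of all strains called negative, and the median was -0.43. Without centring the count was 8, where 1894 of all 5444 strains were called negative and the median of all strains was -0.72. The 4, named after their values were seen, were RRP14 (-1.41), CUE2 (-1.16), CYT2 (-0.80) and MIF2 (-0.78). MIF2 encodes a centromere protein and CYT2 the haem lyase of cytochrome c1. SRX1, directly beside MDH1, differed by -0.01. Around MDH2, limma called YGK3 (-0.75) and TRM13 (-0.81), also named after their values were seen, and the count was 4 without Pool A replicate 1 and 1 without replicate 2.

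**Figure D3:**
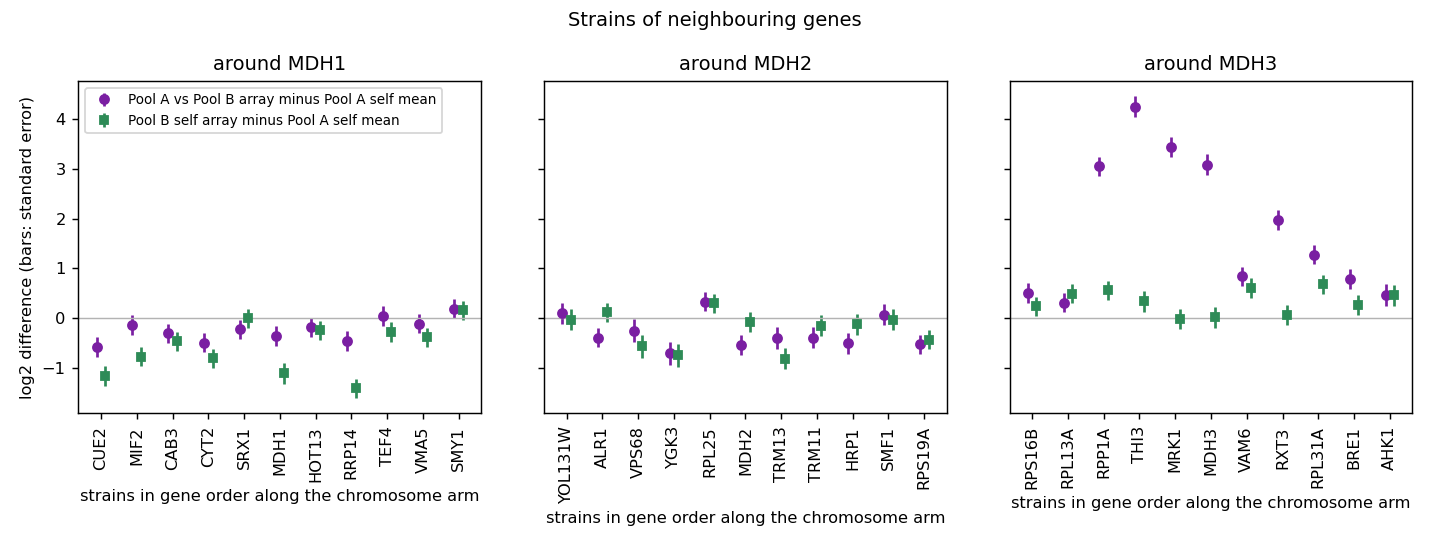
Log2 difference (vertical axis, with bars for the SE from the spread of the Pool A arrays) of MDH1, MDH2, MDH3 and the 5 measured genes on either side of each in gene order (horizontal axis), with circles for the mixed array and squares for the Pool B self-self array, each minus the Pool A self-self mean. On the mixed array the strains from RPP1A to MDH3 stand between 3.05 and 4.25, while around MDH1 and MDH2 none exceeds 0.33.

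The strains with the most similar readings were found by the root mean square distance over 10 readings, the 2 tags on 5 arrays. Those nearest to MDH3 were GUK1, the guanylate kinase gene (distance 0.34), PKH3 (0.41) and MRK1 (0.45), against a median distance of 1.39 over all strains. All 3 lie on chromosome IV, MRK1 next to MDH3 and the others on the opposite arm, and their mixed differences were 2.45, 2.35 and 3.43. The distance includes the mixed array, on which MDH3 was chosen, so high mixed values here follow from the way the strains were found. With quantile normalization UBX3 took the place of MRK1. Nearest to MDH1 were ORM1 (0.19), YKL091C (0.20) and YLR030W (0.22), with Pool B differences of -0.95, -0.93 and -0.85. YKL091C lies on the same arm of chromosome XI as MDH1, while ORM1 lies on chromosome VII and YLR030W on XII. The Pool B readings are likewise part of the distance. Nearest to MDH2 were a tag set of EMG1 (0.15), WHI3 (0.16) and SIP3 (0.17), of which 1 of 3 stayed with quantile normalization. MDH1 and MDH2 were 0.58 apart from each other, where the median distance over all strains was 0.70 from MDH1 and 0.50 from MDH2. MDH2 stood at rank 1428 among the strains nearest to MDH1, and MDH1 at rank 3834 among those nearest to MDH2. MDH3 was 1.48 from MDH1 and 1.51 from MDH2.

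In 5 lists of genes that work beside the malate dehydrogenases, 67 strains were measured, and on the mixed array limma called 0 of them positive and 6 negative. That is 8.96%, against 7.38% of all strains called in either direction. The highest difference among the 67 was 0.54 and their median was -0.06, equal to that of all strains. The lists were set with earlier results of these data known.

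TCA cycle genes, the pathway of MDH1, had 0 positive calls and 1 negative call among 16 measured of 17 on the mixed array, where 7.38% of all strains were called. ACO1, the aconitase gene, differed by -0.95 ± 0.21 (SE, limma adjusted p = 0.00444), with the tags at -1.12 and -0.78. LSC2, a succinyl-CoA ligase subunit gene, had the highest value, 0.53 ± 0.19 (SE, limma adjusted p = 0.0897). ACO1 read 0.22 on the Pool B array, against 0.10, 0.48 and -0.03 on the Pool A arrays, so that -0.76 on the mixed array lay below all self-self arrays. Of the TCA cycle strains, 3 of 16 were called on the Pool B array, where 21.9% of all strains were called and 8.54% as positive. All 3 were positive: IDH2 (0.96 ± 0.21, SE) and IDH1 (0.59 ± 0.19, SE), the isocitrate dehydrogenase subunit genes, and FUM1 (0.95 ± 0.19, SE), the fumarase gene, chosen after their values were seen. A share near that of all strains is no result about the list. The mixed count of the list was 2 with quantile normalization, 0 with all 4 self-self arrays as the reference and 4 with the Pool B array.

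Genes of the glyoxylate cycle and gluconeogenesis, which work with MDH2 and MDH3, had 0 calls among 10 strains on the mixed array by limma. Of all strains 7.38% were called there. Of all 5444 strains 1178 were at an unadjusted limma p under 0.05, and of the list 1 strain. That strain was ICL1, the isocitrate lyase gene, at -0.47 ± 0.19 (SE, limma adjusted p = 0.146), and the highest was CIT2, the peroxisomal citrate synthase gene, at 0.34 ± 0.20 (SE). MLS1, the malate synthase gene, differed by 0.08. The Pool B difference of ICL1 was -1.07 ± 0.19 (SE, limma adjusted p = 0.000465), close in size to that of MDH1. It was the only call of the list there, 1 of 10, where 21.9% of all strains were called and 13.3% as negative. That count is no result about the list.

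Redox shuttle and carrier genes, which move malate, aspartate and reducing equivalents between compartments, had 0 calls among 17 on the mixed array by limma. Of all strains 7.38% were called there. Of all 5444 strains 1178 were at an unadjusted limma p under 0.05, and of these genes 1. Their values ran from -0.47 for NDI1, the internal NADH dehydrogenase gene, to 0.41 for DIC1, the dicarboxylate carrier gene. On the Pool B array 3 of 17 were called, where 21.9% of all strains were. They were AAT1 (-0.86 ± 0.20, SE), the mitochondrial aspartate aminotransferase gene, and NDI1 (-0.57 ± 0.20, SE) as negative and GPD1 (0.85 ± 0.23, SE) as positive, AAT1 and GPD1 named after their values were seen. Without Pool A replicate 3 the list had 1 call on that array.

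Peroxisomal genes of beta-oxidation and import, the compartment of MDH3, had 4 negative calls and 0 positive ones among 16 measured of 17 on the mixed array, where 5.84% of all strains were called negative. Their median was -0.24 and their highest value 0.09. ANT1, the peroxisomal adenine nucleotide transporter gene, differed by -0.73 ± 0.22 (SE, limma adjusted p = 0.0387) and PEX5, the import receptor gene for proteins with a C-terminal targeting signal, by -0.73 ± 0.19 (SE, limma adjusted p = 0.0194). The others, named after their values were seen, were TES1 (-0.71), a thioesterase gene, and CTA1 (-0.65), the peroxisomal catalase gene. The tags were unequal in all 4 strains, with -1.15 and -0.31 in ANT1, -0.16 and -1.30 in PEX5, -0.29 and -1.13 in TES1, and opposite signs in CTA1, 0.29 and -1.59. The count of negative calls was 2 with quantile normalization and 0 without Pool A replicate 2, with arrays scaled to one spread, without centring and with all 4 self-self arrays as the reference. With the Pool B array as the reference, 1 was called negative and 1 positive. ANT1 read 0.02 on the mixed array, against 0.75 ± 0.33 (SD, n = 3) on the Pool A arrays. Its Pool B difference (-1.06) and that of PEX13 (-1.01) were called by limma, 2 of 16 where 13.3% of all strains were called negative.

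The GID ubiquitin ligase marks Mdh2 and other gluconeogenic enzymes for degradation when glucose returns. Its genes had 1 negative call, FYV10 (-0.82 ± 0.19, SE, limma adjusted p = 0.00739), among 8 strains on the mixed array, where 7.38% of all strains were called, and the highest was VID24 (0.54 ± 0.20, SE), the substrate receptor gene. The tags of FYV10 were apart, -0.20 and -1.45, and those of VID24 were 0.52 and 0.55. Limma called 3 of 8 on the Pool B array, where 21.9% of all strains were called, namely GID7 (0.87), FYV10 (-0.62) and GID8 (-0.60), the first and last named after their values were seen. The mixed count was 2 without Pool A replicate 1, and 0, with the FYV10 call lost, with all 4 self-self arrays or the Pool B array as the reference. The Pool B count was 1 without replicate 2 and 1 without replicate 3.

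**Figure D4:**
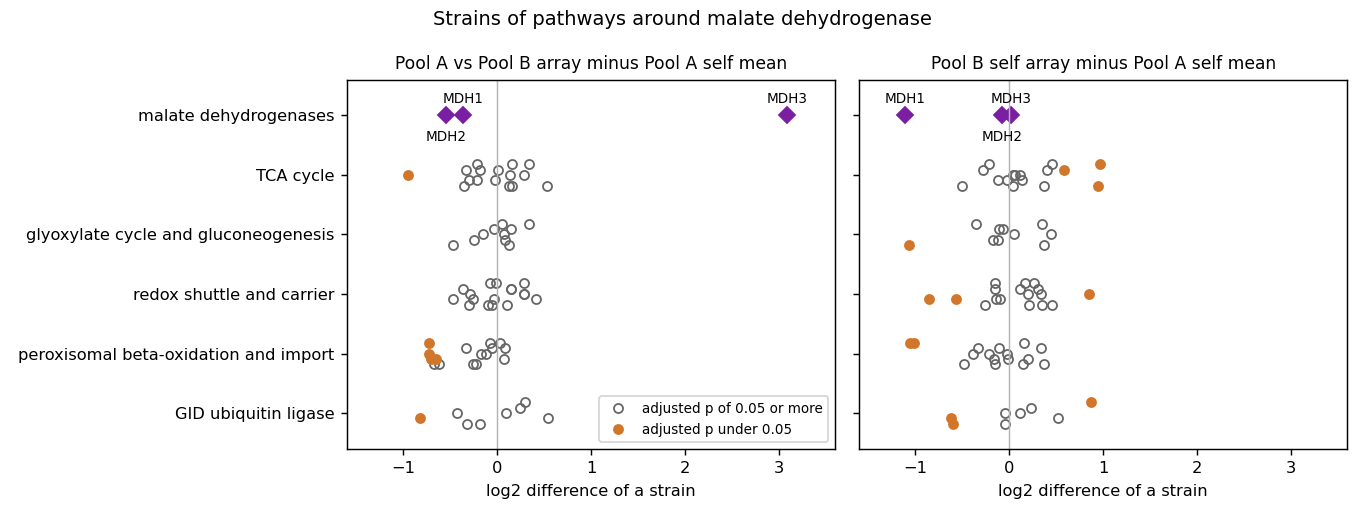
Log2 difference from the Pool A self-self mean (horizontal axis) of the malate dehydrogenase strains and of the strains in 5 pathway lists (rows), for the mixed array (left) and the Pool B self-self array (right), with filled circles for a limma adjusted p under 0.05, open circles for the rest, and diamonds, untested in this plot, for the malate dehydrogenases. On the left the 67 list strains reach 0.54 at most and 6 are called, all negative, and MDH3, which was chosen on this contrast, is drawn at 3.09.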

How the data were processed

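The authors deposited a log2 ratio for each of 22575 spots, with 0 missing. That the base is 2 was read off the numbers, since 100% of the back-transformed ratios under 1.5 then had 3 decimals (within 0.06 of the third decimal); base 10 gave 13.1% and base e 14.0%. The sources used here do not give the scanner, background treatment or normalization. Array medians over named spots ran from -0.77 to 0.07. The platform annotation named 18794 spots with 1 gene and 3781 with none. Genes were matched to a table of assembly R64 for names, chromosomes and gene order only (5321 of 5325 matched), as the files name no build. Runs of 5 repeat spots were averaged with the tag's own spot where the gene had 1 such spot. Otherwise a run formed a tag set of its own. Both tags were averaged per strain (5444 tag sets, 10888 tags).

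Arrays were centred on named spots. A 3-group linear model was fitted to all strains, and to all tags, with limma 3.58.1 under R 4.3.3, with Benjamini-Hochberg adjustment over each table and two-sided tests at 0.05. Residual spread has 2 degrees of freedom per strain, from the 3 Pool A arrays. Limma drew it toward the spread of all strains, with a median of 25.8 total degrees of freedom per strain. The p-values measure only spread between the Pool A arrays, which may be technical. Few arrays limit the precision, and the median SE of a strain's difference was 0.20. The fit was tested on simulated data in which the lone arrays varied like the Pool A arrays. That test therefore could not check whether the real lone arrays do. Python 3.11.15 made tables and figures. Named strains were the members, the 2 members of each list with the largest mixed difference, the called neighbours of MDH3 and the 3 nearest strains to each member. Members, lists and this rule were chosen with earlier results of these data known.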

Additional observations from a re-analysis of the deposited data

Results flagged for a closer look

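The dye effect of the MDH1 strain differed between the Pool B self-self array and the Pool A self-self arrays, where both channels of each array held 1 pool. The difference was -1.11 ± 0.20 (SE, limma adjusted p = 0.000551), and the Pool B array lay below 3 of 3 Pool A arrays. Its second tag differed by -1.61 ± 0.26 (SE, limma adjusted p = 0.000144), also below 3 of 3. The Pool B array has its own title date, and its part in the result was not tested.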

How the results depend on the processing

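Values are the main one and then its alternatives. The MDH3 difference of 3.09 on the mixed array was 2.66 without centring and 2.40 with quantile normalization, and from 2.95 to 3.21 with a Pool A replicate left out. Without centring the median of all strains was itself -0.49 on the mixed array and -0.72 on the Pool B array, so that MDH1 (-0.78), MDH2 (-0.97) and the Pool B difference of MDH3 (-0.67) moved with it. The mixed difference of MDH1 was -0.0835 with all 4 self-self arrays as the reference and 0.75 with the Pool B array, where its second tag reversed to 0.75. The departure of MDH1 from 0 on the Pool A arrays passed the threshold with tag blocks centred separately (0.23, limma adjusted p = 0.0488) and with a trended, robust prior (0.23, limma adjusted p = 0.0443), and ran from 0.10 to 0.32 with a replicate left out; that of MDH2 ran from 0.12 to 0.29. The cause of these changes was not tested.

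Of all strains, 402 were called on the mixed array (84 positive, 318 negative), 227 without centring and 226 after scaling the arrays to one spread. With all 4 self-self arrays as the reference 33 were called (27 positive, 6 negative), and 190 to 480 with a replicate left out. Quantile normalization gave 105 positive and 179 negative. On the Pool B array 1190 were called (465 positive, 725 negative), 1899 without centring (5 and 1894), 712 with arrays scaled, and 719 to 1704 with a replicate left out; separate block centring gave 754 and 693, quantile normalization 790 and 809, and centring on all spots 227 and 606. Against 0, 2443 strains became 834 without centring and 1509 to 2535 with a replicate left out. Of all tags, 915 were called on the mixed array, 301 without centring, 1462 with separate block centring, 1390 with quantile normalization, 433 centred on all spots, 72 with all 4 self-self arrays, and 12 to 929 with a replicate left out. On the Pool B array 2310 tags became 3530, 3494 and 1429 with separate blocks, quantile normalization and all-spot centring, and 0 to 1651 with a replicate left out; the 0 is limma without replicate 1, with 4977 tags at an unadjusted p under 0.05. Against 0, 5258 tags became 2870 without centring. No paired analysis was possible because the labels pair neither the lone mixed array nor the lone Pool B array with a Pool A array.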
